A study of Rattus norvegicus with 40 samples.

Results

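Livers of rats given the lowest dose of GW7647, 0.1 mg/kg, were compared with livers of rats given vehicle over all genes on the array, with attention to the genes that passed the test first and to those just short of it. The members were the 10 arrays titled with that dose and the 10 titled with a dose of 0, or 20 of the 40 arrays, and 13438 genes were measured on each. All animals were adult male Sprague Dawley SD:CD rats that received GW7647 or vehicle by gavage each day for 4 days, and the whole liver was sampled 24 h after the last dose. The labels list GW7647 as the agent for the vehicle arrays too, with a dose of 0. The other 20 arrays came from rats given 1 or 10 mg/kg in the same way. They are not among the 20 arrays compared, but they share the estimate of each gene's spread, since 1 model was fitted to all 40 arrays. Each array held RNA of 1 rat, so p-values set the group difference against the spread between rats. Whole liver is a mixture, however, and fewer cells of a type and less RNA per cell cannot be told apart.

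GW7647 is a synthetic agonist of PPAR-alpha, a nuclear receptor that is abundant in hepatocytes and is activated by fatty acids. With its partner RXR it binds DNA at paired AGGTCA-like half-sites set 1 base apart, and its targets in rodent liver are genes for importing, activating and oxidising fatty acids in mitochondria and peroxisomes and for hydroxylating them at the far end of the chain. Long unsaturated fatty acids need auxiliary isomerases and a reductase before they can enter the oxidation cycle, and carnitine carries acyl groups across the mitochondrial membrane.

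The arrays of both groups were on 1 scale. The median of all probe sets lay between 2.44 and 2.52 on the vehicle arrays and between 2.42 and 2.52 at 0.1 mg/kg (log2 signal), and over all genes the log2 change had a median of -0.03. Arrays 8 and 9 of the 0.1 mg/kg group stood apart by a lower upper quartile. They read 4.27 and 4.47 against a median of 4.81 over the 20 arrays. The number of called genes and several named results are given with and without them, but counts by unadjusted p are not. RNAs added before labelling (24 poly-A control probe sets) read 0.27 higher at 0.1 mg/kg, from 5.57 ± 0.37 to 5.84 ± 0.28 (SD, n = 10 each). In permutation tests of 6 array measures this difference had p = 0.0851 and adjusted p = 0.51, and the others had p = 0.336 or more. All 8 measured hepatocyte markers were bright, with vehicle means from 10.84 to 13.52. None of the markers in the 10 cell type lists passed the test, and only 2 had an unadjusted p under 0.05, Ass1 of hepatocytes (-0.23) and Rgs5 of stellate cells (-0.25). The summed level of Kupffer cell and macrophage markers ran from 11.17 to 12.02 with vehicle and from 11.34 to 12.00 at 0.1 mg/kg. For lymphocyte markers, none of which reached log2 5 in vehicle, the sums ran from 5.73 to 6.19 and from 5.76 to 6.11. Cholangiocyte and neutrophil markers also all lay below log2 5 in vehicle.

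At 0.1 mg/kg 11 genes rose and 2 fell. Of the 11, 10 encode enzymes or organelle proteins of fatty acid or fatty ester metabolism in mitochondria, peroxisomes and the endoplasmic reticulum. That grouping describes the called genes, and its share over all genes was not counted. The tests ask which transcripts the lowest dose already moved, and each gene was called at an adjusted p under 0.05 in limma's moderated test, with Benjamini-Hochberg adjustment over all genes. Calls made up 0.0967% of genes, with 0.0819% higher and 0.0149% lower. Rises of at least 1.5-fold were found for 6 genes. Several called genes varied less between rats at the higher doses, which share in the fitted spread: the SD of Cyp4a1 was 0.27 with vehicle, 0.35 at the lowest dose, 0.10 at the middle and 0.06 at the highest. When only the 2 groups were fitted 7 genes passed, all higher, and Decr1, Acaa2, Spin2b (each adjusted p = 0.0665), Vwa8 (0.082), Hadhb (0.233) and Ermard (0.387) did not. After scaling to the hybridisation controls 7 passed, 6 higher and 1 lower, and Ehhadh (adjusted p = 0.623), Ermard (0.262), Decr1, Acaa2, Hadhb and Vwa8 (each 0.996) did not. In only 2 of all genes, Aig1 and Ech1, or 0.0149%, did every rat given 0.1 mg/kg lie above every vehicle rat, and in 0 genes did every such rat lie below.

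**Figure D1:**
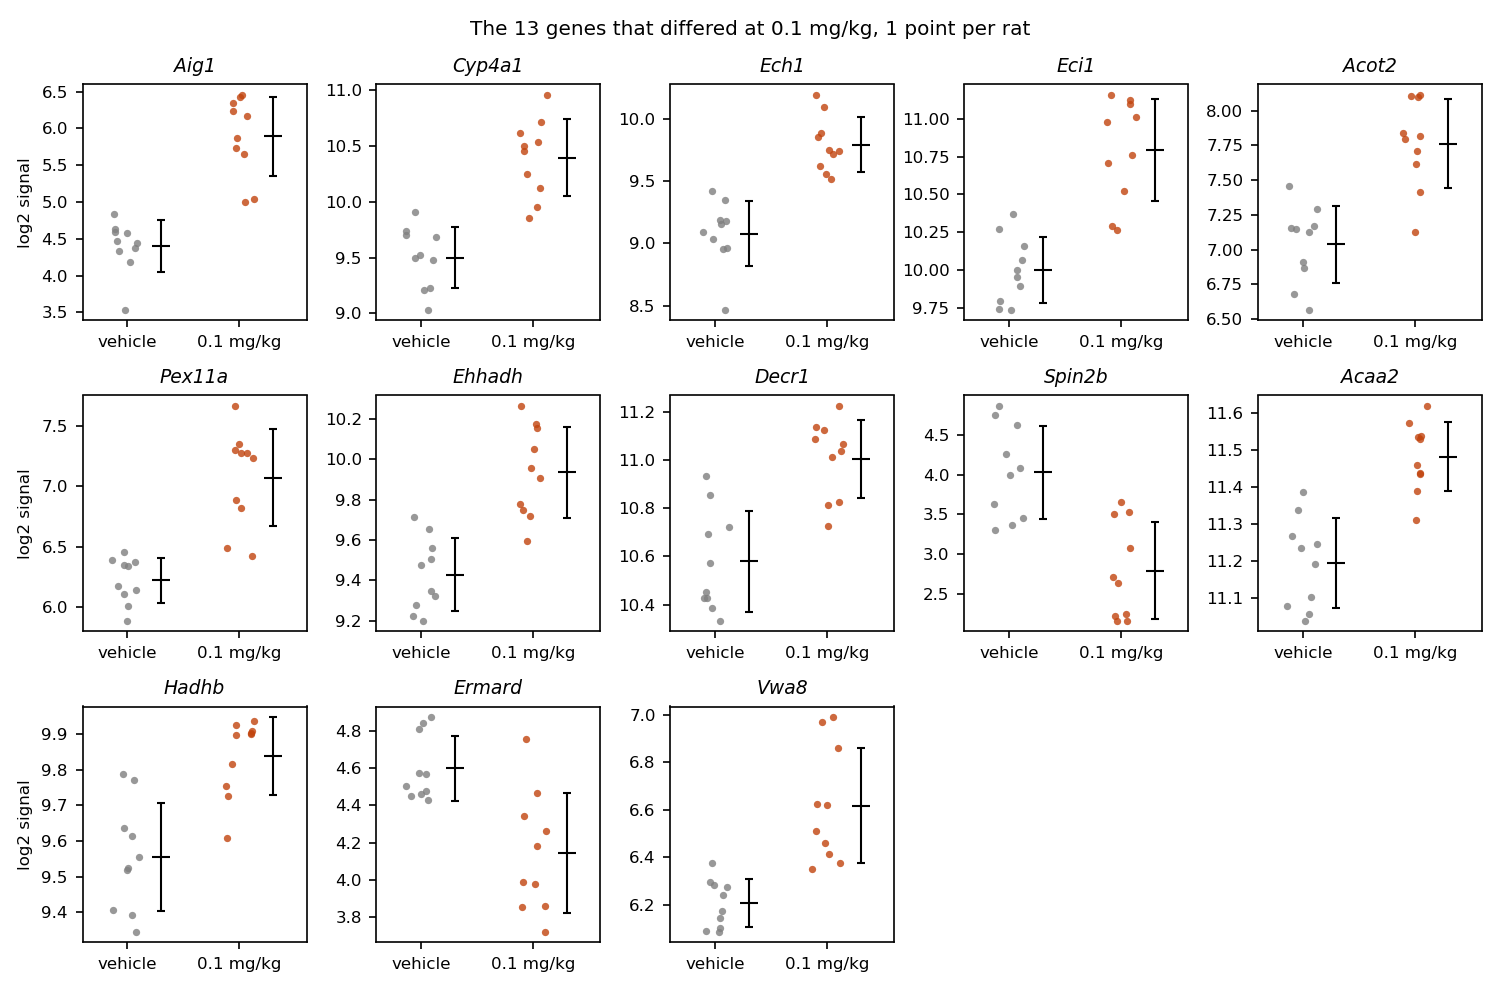
Log2 signal of the 13 genes that differed at 0.1 mg/kg, with 1 point per rat and mean ± SD beside the points (n = 10 per group, each panel on its own axis, not starting at 0). The groups do not overlap for Aig1 and Ech1 and overlap by a few rats for the others.

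Aig1, an endoplasmic reticulum hydrolase of fatty esters of hydroxy fatty acids, had the largest rise. Its vehicle values ran from 3.54 to 4.84 with a median of 4.46, and at 0.1 mg/kg they ran from 4.99 to 6.45 with a median of 6.02. The log2 change was 1.49 (SE 0.15, adjusted p = 3.59e-08). The vehicle mean of 4.40 lay below log2 5, and for dim genes the size of a change depends on the background correction. A second, dimmer Aig1 probe set, at 2.04 in vehicle, had a log2 change of -0.07, so the rise rests on a single probe set.

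Cyp4a1, the P450 that hydroxylates fatty acids at the terminal carbon, rose from 9.50 ± 0.27 to 10.40 ± 0.35 (SD, n = 10 each). Vehicle values lay from 9.03 to 9.91 and values at 0.1 mg/kg from 9.86 to 10.95, so that 9 of the 10 treated rats lay above every vehicle rat. The change was 0.90 (SE 0.10, adjusted p = 3.43e-07). Its relative Cyp4a3 had 0.37 (SE 0.11, adjusted p = 0.55), and 0 of the other 8 measured Cyp4 genes passed.

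Ech1, Eci1 and Decr1, a pair of isomerases and a reductase of unsaturated fatty acid oxidation, rose, while the isomerase Eci2 did not. Ech1, which shifts paired double bonds, ran from 8.47 to 9.42 with vehicle (median 9.12) and from 9.52 to 10.19 at 0.1 mg/kg (median 9.75), a change of 0.71 (SE 0.08, adjusted p = 5.79e-07). Eci1, the mitochondrial enoyl-CoA isomerase, ran from 9.74 to 10.37 and then from 10.26 to 11.16, a change of 0.79 (SE 0.10, adjusted p = 1.04e-06). In Eci1 8 treated rats lay above every vehicle rat. Its other probe sets, at 2.23 and 2.74 in vehicle, had changes of 0.04 and 0.06. Decr1, the mitochondrial dienoyl-CoA reductase, rose by 0.42 (SE 0.07, adjusted p = 0.000554). Its range was 10.33 to 10.93 with vehicle and 10.72 to 11.22 when treated, and it did not pass with only the 2 groups fitted. Eci2, the related isomerase shared with peroxisomes, had a change of 0.00 (SE 0.09).

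Inside the mitochondrial cycle itself, a pair of thiolases, which close each turn, rose, and no acyl-CoA dehydrogenase named below passed. Hadhb, the thiolase subunit of the trifunctional protein, rose from 9.56 ± 0.15 to 9.84 ± 0.11 (SD, n = 10 each, adjusted p = 0.0114), and 7 treated rats lay above every vehicle rat. Acaa2, the medium-chain thiolase, rose from 11.20 ± 0.12 to 11.48 ± 0.09 (adjusted p = 0.00411), and 9 treated rats lay above every vehicle rat, although a dimmer probe set had a change of 0.01. Both rises were small, 1.22-fold each, and neither passed when only the 2 groups were fitted. Hadha, the other trifunctional subunit, had 0.27 (SE 0.09) with an adjusted p of 0.99. Of the acyl-CoA dehydrogenases that open each turn, Acadvl had 0.14 (SE 0.05) and Acads 0.21 (SE 0.08), both with an unadjusted p under 0.05, and Acadvl with an adjusted p of 0.99. Acadm had 0.06 (SE 0.08) and Acadl 0.09 (SE 0.08). Of 19 measured genes of mitochondrial beta-oxidation 4 rose and 0 fell. Without adjustment 7 were higher and 0 lower (p under 0.05), where 1.28% of all genes were higher and 3.09% lower, and the median log2 change was 0.09 against -0.03 for all genes. The list and the other lists used here were chosen with earlier results of these data known, so their counts are descriptions.

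In peroxisomes, Ehhadh, the bifunctional enzyme of hydration and dehydrogenation, rose from 9.43 ± 0.18 to 9.93 ± 0.22 (SD, n = 10 each, adjusted p = 0.000381). Vehicle values lay from 9.20 to 9.72 and treated values from 9.59 to 10.26, and 9 treated rats lay above every vehicle rat. Pex11a, which elongates and divides peroxisomes, rose by 0.85 (SE 0.13, adjusted p = 0.000203), from 5.89 to 6.46 with vehicle to 6.42 to 7.66. Its second probe set read a change of 0.76, from 4.12. Treated rats were more scattered than vehicle rats for this gene, with SDs of 0.40 and 0.19. The rest of both pathways stayed short of the threshold: Ech1 and Ehhadh were the 2 of 13 measured peroxisomal beta-oxidation genes that rose, with a list median of 0.03, and Pex11a the single one of 13 peroxins, with a median of -0.02. Hsd17b4, the second bifunctional enzyme, had 0.04 (SE 0.08), and Abcd3, a fatty acid importer, -0.07 (SE 0.11).

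Acot2, the mitochondrial acyl-CoA thioesterase, rose by 0.73 (SE 0.10, adjusted p = 5.55e-05). It ran from 6.57 to 7.46 with vehicle and from 7.13 to 8.11 at 0.1 mg/kg, where 8 rats lay above every vehicle rat. All 3 of its probe sets were higher, by 0.73, 0.69 and 0.54. Acot1, the cytosolic thioesterase and a close paralog whose transcripts may share probes with Acot2, stayed at the floor of the array, at 1.65 ± 0.19 and 1.82 ± 0.18 (SD, n = 10 each). No other of the 8 measured thioesterases passed. Vwa8, a mitochondrial ATPase, rose from 6.21 ± 0.10 to 6.62 ± 0.24 (SD, n = 10 each, adjusted p = 0.0368), with 9 treated rats above every vehicle rat. Its call was fragile: it held in 8 of the 20 fits that each left out 1 array, with an adjusted p up to 0.14, and its other probe sets had changes of 0.15 and 0.23.

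Of the 2 genes that fell, Spin2b, a gene of the spindlin family, went from 4.03 ± 0.59 to 2.79 ± 0.61 (SD, n = 10 each), a change of -1.24 (SE 0.23, adjusted p = 0.00411). Its vehicle values lay from 3.31 to 4.86 and its treated values from 2.16 to 3.66, near the floor, where the size of a change depends on the background correction, and the call was lost with only the 2 groups fitted. Ermard, an endoplasmic reticulum membrane protein, changed by -0.46 (SE 0.10, adjusted p = 0.0343). Its values ran from 4.43 to 4.87 with vehicle and from 3.72 to 4.76 when treated, with 8 treated rats below every vehicle rat. It held its call in 10 of 20 fits without 1 array, and it lost the call without arrays 8 and 9 of the treated group (adjusted p = 0.337) and after quantile normalization (adjusted p = 0.102). With those 2 arrays left out the count was 14, of which 13 were higher and 1 lower, and 12 of the 14 were among the 13 above.

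Promoter windows of 250 bases before to 50 after a gene's start, from RefSeq on GRCr8, were at hand for 8 of the 13 genes and for 6 of the 11 that rose. The 3 shown are that of Aig1, the gene with the largest rise, and those of Eci1 and Hadhb, the 2 rising genes whose window held the half-site AGGTCA on either strand. Each is written 5′ to 3′ on the gene's own strand, and the capitals mark the half-site, which reads TGACCT on that strand. The Aig1 window lies at chr1:10089034-10089333 (minus strand), that of Eci1 at chr10:13961000-13961299 (plus strand) and that of Hadhb at chr6:31907451-31907750 (minus strand).
Aig1: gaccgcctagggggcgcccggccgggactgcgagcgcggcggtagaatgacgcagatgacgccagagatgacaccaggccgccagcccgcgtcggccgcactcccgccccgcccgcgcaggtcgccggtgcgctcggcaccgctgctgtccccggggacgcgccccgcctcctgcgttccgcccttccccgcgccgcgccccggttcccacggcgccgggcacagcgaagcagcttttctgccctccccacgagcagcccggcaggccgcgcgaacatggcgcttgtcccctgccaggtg
Eci1: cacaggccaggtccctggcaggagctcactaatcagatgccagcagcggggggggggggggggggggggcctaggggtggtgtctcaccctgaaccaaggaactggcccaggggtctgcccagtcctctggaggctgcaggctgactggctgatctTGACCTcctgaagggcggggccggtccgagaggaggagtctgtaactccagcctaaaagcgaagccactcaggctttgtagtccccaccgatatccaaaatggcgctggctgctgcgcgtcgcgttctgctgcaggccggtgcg
Hadhb: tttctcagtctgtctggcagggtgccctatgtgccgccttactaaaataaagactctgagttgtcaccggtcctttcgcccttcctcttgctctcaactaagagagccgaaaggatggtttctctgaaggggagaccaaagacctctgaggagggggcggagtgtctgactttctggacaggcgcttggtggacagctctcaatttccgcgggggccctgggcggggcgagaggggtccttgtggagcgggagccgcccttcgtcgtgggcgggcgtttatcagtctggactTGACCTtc
Counted from the start, the half-site began at position -94 in Eci1 and at position 42 in Hadhb. A half-site was found in 16.2% of all 33469 windows. The full pair AGGTCANAGGTCA, which contains the half-site, was found in 0.0538% of windows and in 0 of the 8 at hand for these genes. The looser AGGNCANAGGNCA, which includes it, was found in 0.415% of windows and also in 0 of the 8. Sites outside these windows were not searched. The Hadhb half-site lies close to the end of its window, so a pair running past that end could not be seen. The windows of Hadhb and of Hadha, which runs the other way, overlap by 200 bases, and their starts lie 301 bases apart on chromosome 6. Hadhb rose by 0.28 (SE 0.06) and Hadha, with 0.27 (SE 0.09), did not pass.

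The genes that rose at 0.1 mg/kg also rose together from rat to rat within that group. Across the 10 treated rats all 10 other rising genes correlated positively with Cyp4a1, with Pearson r from 0.543 to 0.884 and a median of 0.741. Eci1 followed Cyp4a1 most closely, with r = 0.884 (permutation p = 0.00083, adjusted p = 0.0199) and Spearman's rho = 0.927 (permutation p = 0.00029, adjusted p = 0.00696), and r was 0.855 without the 2 rats farthest from the median of Cyp4a1. Adjusted over 24 relations in both groups, 5 of the 10 passed on r, namely Ech1, Eci1, Acot2, Ehhadh and Decr1. On rho Hadhb passed and Decr1 did not. The relation with Pex11a rested on the 2 outermost rats, since r went from 0.727 to 0.307 without them. In the vehicle group r ran from -0.647 to 0.83 with a median of 0.0276. Without the 2 rats outermost in Cyp4a1 the groups were closer, with medians of 0.269 with vehicle and 0.632 when treated. Several vehicle values then rose, that of Eci1 from 0.0498 to 0.787, of Acot2 from -0.0164 to 0.638 and of Aig1 from 0.247 to 0.556. There only Ehhadh passed, with r = 0.83, rho = 0.83 and adjusted permutation p of 0.0357 and 0.027, and r was 0.728 without the outermost 2 rats. The median in the vehicle group moved to 0.406 when vehicle array 10 was left out. Over all genes, the median r with Cyp4a1 was -0.027 in the treated group, and 0.402% of genes exceeded 0.741. Without arrays 8 and 9 the treated median was 0.768. The difference between the groups' correlations was not tested, and rats of a group share no label that marks a batch.

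**Figure D2:**
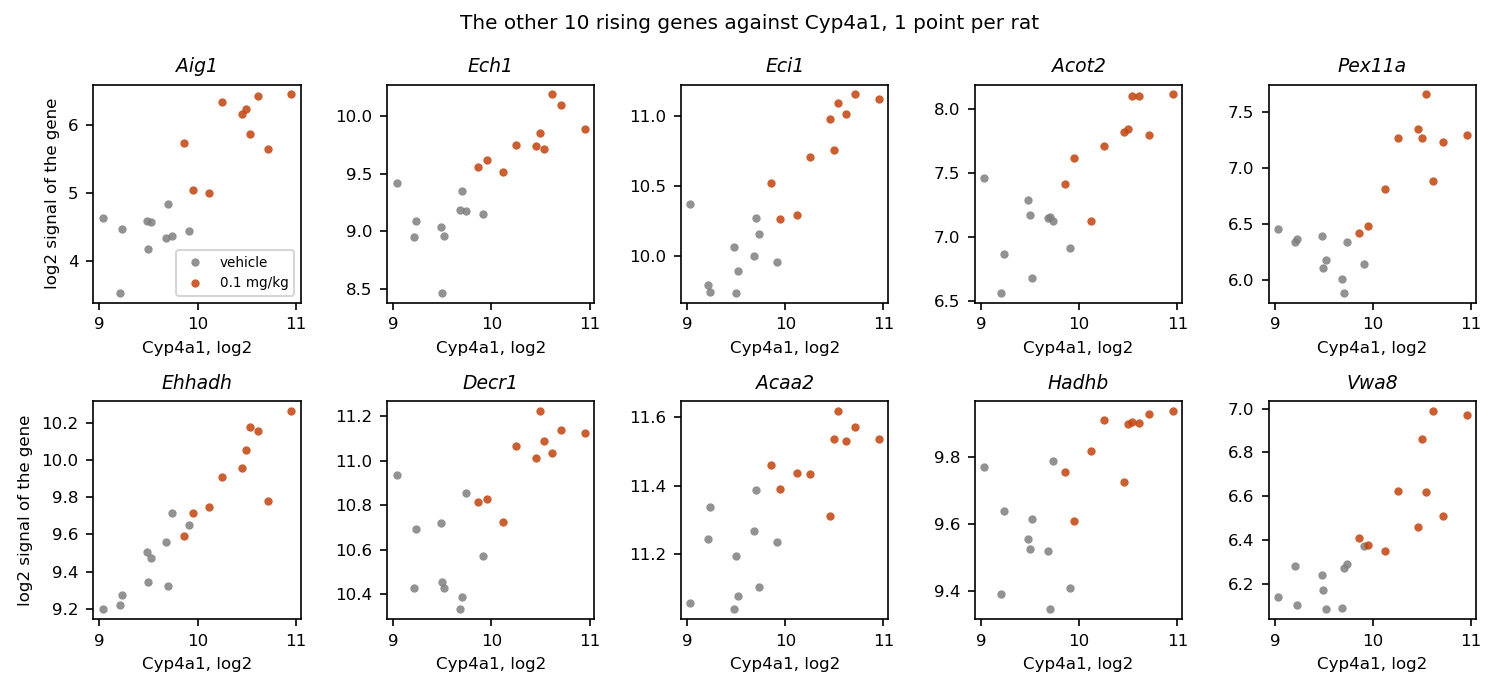
Log2 signal of the other 10 rising genes (vertical axes) against that of Cyp4a1 (horizontal axes), with 1 point per rat, vehicle in grey and 0.1 mg/kg in red. Among treated rats the genes rise along with Cyp4a1, with a median r of 0.741, and among vehicle rats the median r is 0.0276, or 0.269 without the 2 rats outermost in Cyp4a1.

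Below the threshold, 3 genes had an adjusted p from 0.05 to under 0.25. Crat, the carnitine acetyltransferase of mitochondria and peroxisomes, ran from 4.31 to 5.17 with vehicle and from 4.83 to 5.87 at 0.1 mg/kg. All 10 treated rats lay above the vehicle median and 6 above every vehicle rat, and the change was 0.52 (SE 0.12, adjusted p = 0.107). Crat stayed uncalled in 11 of 15 alternative settings and in 16 of the 20 fits without 1 array. Its adjusted p was 0.688 after scaling to the hybridisation controls and 0.412 with only the 2 groups fitted. With 1 array left out it was up to 0.363. Crat passed after quantile normalization (adjusted p = 0.0312), with array weights (0.00228), with the replicate number as a block (0.046) and without arrays 8 and 9 (0.0282). It also passed without treated array 6 (0.03) or 9 (0.0322) and without vehicle array 1 (0.0412) or 10 (0.048). Egr1 and Gadd45a, genes that respond quickly to growth and stress signals, were lower. Egr1 ran from 4.32 to 6.29 with vehicle and from 3.11 to 5.52 when treated, a change of -1.54 (SE 0.38, adjusted p = 0.185). For Gadd45a the change was -1.24 (SE 0.30, adjusted p = 0.185). In both genes all 10 treated rats lay below the vehicle median while the ranges overlapped. Without arrays 8 and 9 the adjusted p was 0.599 for Egr1 and 0.521 for Gadd45a. In the 20 fits without 1 array it ran from 0.0503 to 0.44 for Egr1 and from 0.0417 to 0.521 for Gadd45a. The Gadd45a call appeared only when treated array 7 was left out (adjusted p = 0.0417).

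Further down the ranking were other genes of fatty acid metabolism and of retinoid and steroid metabolism. Vnn1, a pantetheinase that recycles part of coenzyme A, had 0.64 (SE 0.19, adjusted p = 0.763), with 5 treated rats above every vehicle rat. Aldh1a1, a retinaldehyde dehydrogenase, had 1.05 (SE 0.27, adjusted p = 0.326). Its vehicle rats were widely spread, from 5.87 to 8.86, and the treated rats lay from 7.63 to 9.27. Crot, which makes carnitine esters of peroxisomal products, had 0.40 (SE 0.11) and Slc27a2, a very long chain acyl-CoA synthetase, 0.19 (SE 0.05), both with adjusted p = 0.443. Cyp17a1, a steroid hydroxylase, had 0.64 (SE 0.18, adjusted p = 0.443), with 6 treated rats above every vehicle rat and 1 below them all. Large uncalled changes were also found for Ifgga2l1, with 1.00 (SE 0.40), Serpina7, with 0.94 (SE 0.34), and Asrgl1, with -0.85 (SE 0.38).

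Other quickly responding genes were low in the same ranking. Gadd45g had -1.70 (SE 0.53, adjusted p = 0.818), but its treated rats ran from 3.55 to 7.83 and overlapped most of the vehicle range of 4.58 to 8.15. Myc averaged 5.93 ± 0.81 with vehicle and 4.93 ± 0.72 when treated (SD, n = 10 each), and Ier2 had a log2 change of -0.50 (SE 0.14, adjusted p = 0.442). Of 19 immediate-early genes 0 passed in limma's test, 3 were low and 1 high by unadjusted p (under 0.05), where 3.09% of all genes were lower and 1.28% higher. The median was -0.14, or -0.09 without arrays 8 and 9. It was -0.37 among the 10 members past a filter at log2 5. That filter kept genes whose mean reached this level in any dose group, 1 and 10 mg/kg included.

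**Figure D3:**
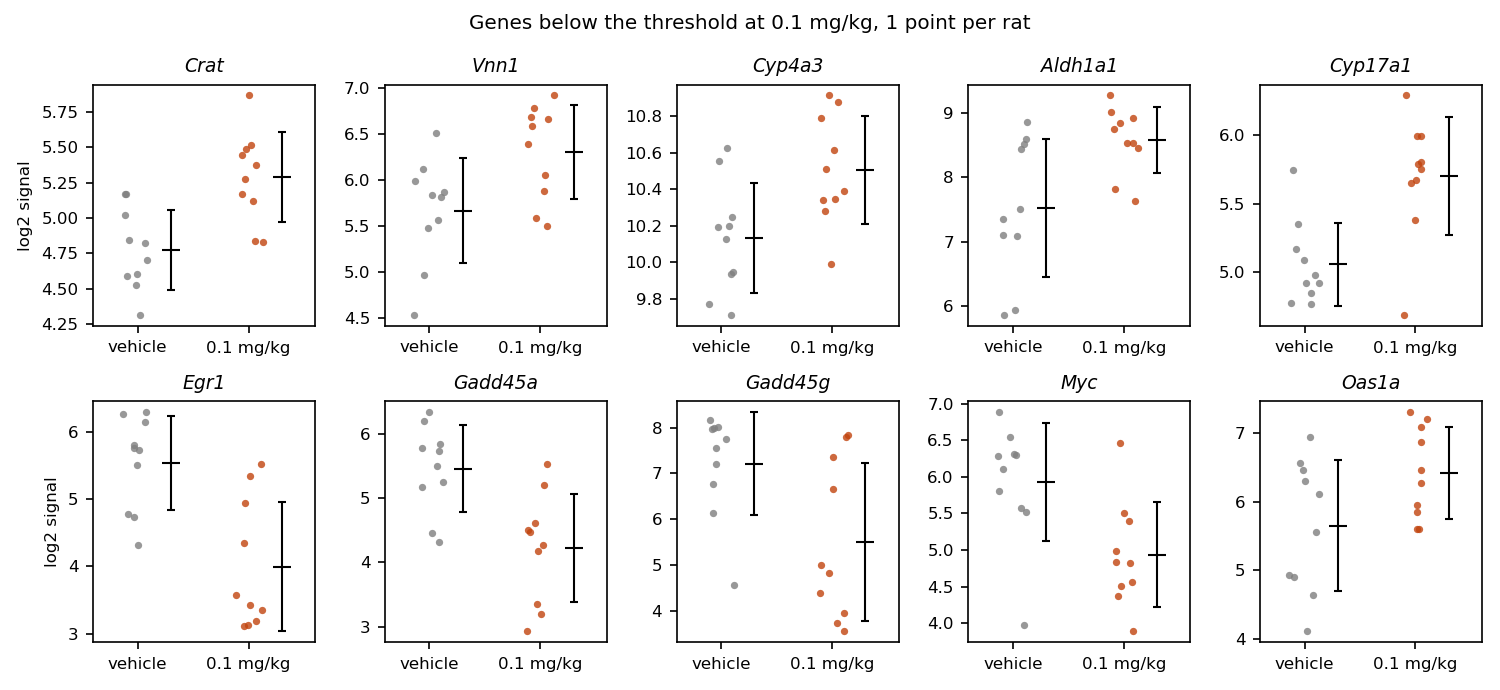
Log2 signal of 10 genes that did not pass at 0.1 mg/kg, with 1 point per rat and mean ± SD (n = 10 per group, each panel on its own axis, not starting at 0). Crat, Vnn1, Cyp4a3 and Aldh1a1 lie higher and Egr1, Gadd45a, Gadd45g and Myc lower in treated rats, with overlapping ranges in every panel.

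Counted over all genes on the deposited scale, more lay on the low side than on the high side of the ranking. An unadjusted p under 0.05 was found for 587 genes, or 4.37%, of which 172 (1.28%) were higher and 415 (3.09%) lower. Under 0.01 it was found for 130, or 0.967%. In the reference list of PPAR-alpha targets, of 45 measured members 14 were higher and 0 lower without adjustment (p under 0.05), and 9 of the 14 passed the adjusted threshold. The remaining 5 were Crat, Cyp4a3, Vnn1, Hadha and Acadvl. The list median was 0.09. In the carnitine shuttle 2 of 10 measured genes, Crat and Crot, were higher at an unadjusted p under 0.05 and 0 passed. For lipid droplets and triglyceride turnover 0 of 19 were higher and 1 lower at that level, and for lipogenesis and desaturation 0 of 18 in either direction.

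**Figure D4:**
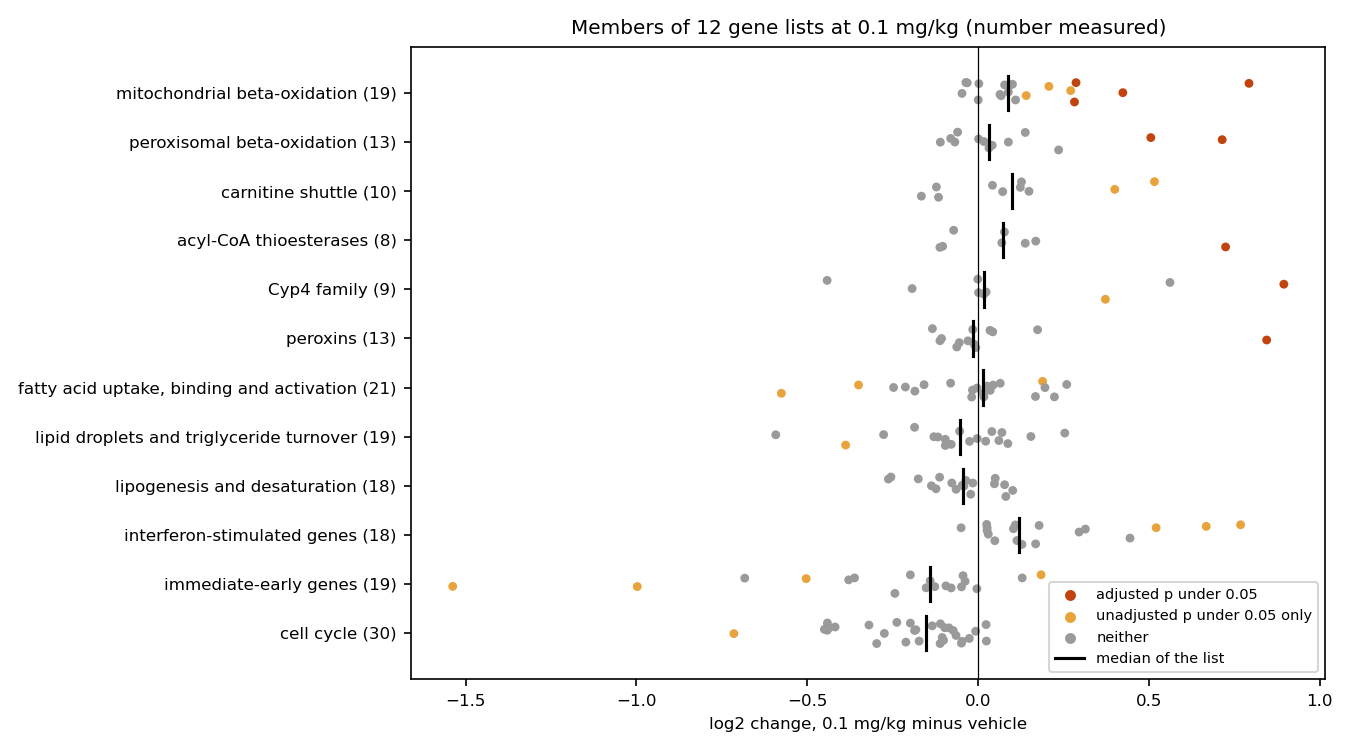
Log2 change at 0.1 mg/kg of the measured members of 12 gene lists (horizontal axis), 1 point per gene, coloured by whether the gene passed at an adjusted or only an unadjusted p under 0.05, with a bar at each list's median. The points that passed lie in the oxidation, thioesterase, Cyp4 and peroxin lists, and every one of them is to the right of 0.

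The same genes were looked at again in the 20 rats outside the low-dose comparison, as the step from 1 to 10 mg/kg. No array enters the means of both comparisons, but they share the estimate of each gene's spread. All 11 genes that rose at 0.1 mg/kg rose again in that step, where 24.2% of all genes did, and 9 of the 11 did so after quantile normalization, where 8.58% of all genes did. Eci1 (adjusted p = 0.14) and Decr1 (adjusted p = 0.0928) were the 2 that did not pass on the quantile scale. Spin2b did not pass in this step, and Ermard rose by 0.37 (SE 0.10), against its direction at 0.1 mg/kg. Among the 44 genes that were higher at 0.1 mg/kg with an unadjusted p under 0.01 but were not called, 25 (56.8%) rose in the step, or 11 (25.0%) on the quantile scale. Of the 117 higher genes with an unadjusted p from 0.01 to under 0.05, 48 (41.0%) rose, or 12 (10.3%) on the quantile scale. For the 4923 higher genes with an unadjusted p of 0.05 or more the shares were 31.3% and 10.1%. On the lower side, 12 of 73 genes under 0.01 (16.4%) fell in the step, where 6.36% of all genes did, and on the quantile scale 18 of 73 (24.7%) did, against 9.74% of all genes. The arrays at 1 and 10 mg/kg differ in scale, with the medians of all genes 0.16 and 0.26 above vehicle, and the quantile values are given for that reason.

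Set beside the higher doses, which were compared with the same vehicle rats, the 11 rising genes had their smallest change at the lowest dose. On the log2 scale the change at 0.1 mg/kg was between 14.4% (Hadhb) and 30.4% (Decr1) of that at 10 mg/kg for the 11 genes that rose. For Aig1 the changes were 1.49, 4.48 and 5.47 at 0.1, 1 and 10 mg/kg. Cyp4a1 had 0.90, 2.94 and 3.26, and Pex11a 0.85, 2.71 and 3.66. Acaa2 had 0.29, 0.96 and 1.23. Among the genes that fell, Spin2b was lower at every dose, with -1.24, -1.49 and -1.85. Its change at 0.1 mg/kg was 67.2% of that at 10 mg/kg, but it was dim and the same vehicle rats enter each change. Ermard had -0.46, 0.20 and 0.57.

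Other reference genes did not pass at the lowest dose, and several with large changes at the higher doses were close to 0 there. Acot1 had 0.17 (SE 0.08) at the lowest dose and 9.06 and 9.91 at the 2 others. Cpt1b, the muscle-type carnitine palmitoyltransferase, had -0.12, 2.50 and 6.25, and Fabp3, a fatty acid binding protein typical of heart, had -0.16, 1.72 and 6.86. Lpl, lipoprotein lipase, had 0.20, 0.47 and 3.86. These 4 genes were dim in vehicle, at 1.65 (Acot1), 2.29 (Cpt1b), 3.69 (Fabp3) and 3.69 (Lpl). At such levels the size of a change depends on the background correction, and a small rise at the lowest dose may not show. The next 3 genes were brighter in vehicle, at 8.64 (Pdk4), 8.33 (Slc25a20) and 8.16 (Cpt1a). Pdk4, which restrains pyruvate oxidation, had -0.31 (SE 0.20) at the lowest dose against 2.65 at the highest, and Slc25a20, the carnitine-acylcarnitine carrier, 0.04 (SE 0.08) and 1.82. Cpt1a, the liver-type enzyme at the entry to mitochondria, had 0.15 (SE 0.15) and 1.68. Hdc and Apoa4 were farther from 0 at the lowest dose, while Fabp1 and Ppara were close to it. Hdc, which makes histamine, had 0.55 (SE 0.19, adjusted p = 0.99) and then 4.72 and 5.41. Apoa4, an apolipoprotein that fell at the higher doses by 2.68 and 4.59, had -0.43 (SE 0.21). Fabp1, the abundant liver fatty acid binding protein, had 0.04 (SE 0.04). Ppara itself was dim, at 2.17 ± 0.23 and 2.11 ± 0.17 (SD, n = 10 each).

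**Figure D5:**
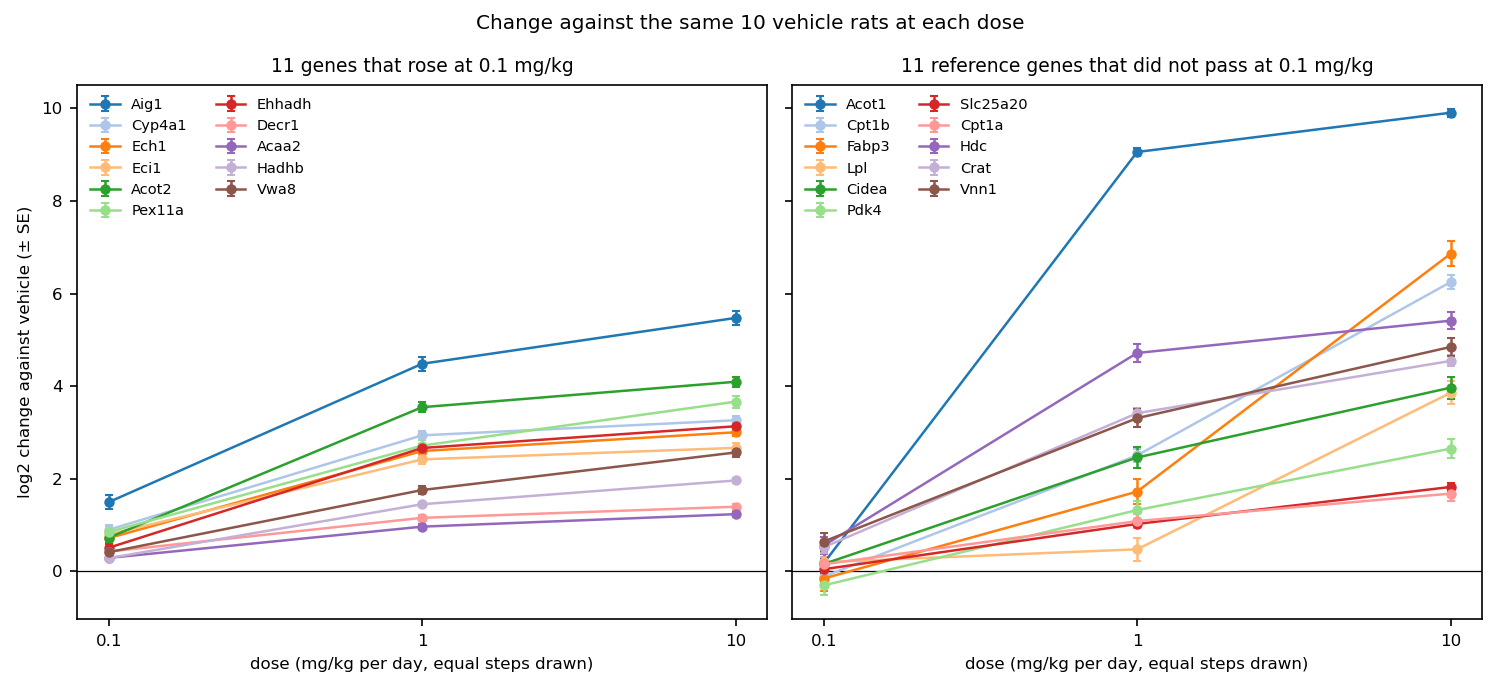
Log2 change against the 10 vehicle rats (vertical axis, ± SE) at 0.1, 1 and 10 mg/kg (horizontal axis, drawn in equal steps) on the deposited scale, for the 11 genes that rose at 0.1 mg/kg (left) and 11 reference genes that did not pass there (right). All points on the left lie above 0 at every dose, while on the right Acot1, Cpt1b and Fabp3 lie near 0 at 0.1 mg/kg and at 1.72 or more at 1 mg/kg. Acot1, Cpt1b and Fabp3 are dim in vehicle (means from 1.65 to 3.69), where a small rise may not show.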

How the data were processed

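Liver RNA of each rat was hybridised to 1 Affymetrix array. The deposited values are log2 expression per probe set, for which the submitters' processing notes name GCRMA and Partek, without versions. The authors' settings are not stated in the labels. GCRMA models probe background, so dim probe sets sit near a floor and their changes depend on that model. Values were used as deposited.

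Of 31139 probe sets, 19063 had 1 symbol, 572 several and 11504 were unnamed or controls. Symbols were updated by Entrez number for 18983 through a RefSeq table of GRCr8. Where a gene had several probe sets, that of the highest mean signal was kept.

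A linear model of the 4 groups was fitted to all 40 arrays with limma 3.58.1 (36 residual degrees of freedom) in R 4.3.3, two-sided, with Benjamini-Hochberg adjustment over all genes. Array measures and correlations used two-sided permutation tests (100000 resamples, scipy 1.17.1). Figures used matplotlib 3.10.9. The test was checked on simulated data. No array was a copy of another.

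Candidates for naming were every called gene and genes with an adjusted p from 0.05 to under 0.25. Up to 6 genes per direction with the largest uncalled changes (unadjusted p under 0.05, mean at log2 5 or more) were candidates too. The rest were up to 5 members per list with the lowest p, and reference genes, 28 of 30 measured. Which of these to describe was decided after seeing values, and Abcd3, Acadl, Acads, Acadvl, Ass1, Eci2, Hsd17b4 and Rgs5 were added then. Members and lists were chosen with earlier results of these data known. Of 491 listed genes 427 were measured, and the others were not analysed here. The covariation alternatives were added after seeing the data.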

Additional observations from a re-analysis of the deposited data

Results flagged for a closer look

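Among 50 genes examined in both groups, 9 of 100 groups of 10 rats had 1 array far from the rest by Dixon's criterion, which chance gives in about 1 group in 20. In the vehicle group, Aig1 was lowest on array 6, at 3.54 against 4.18 on the next array, and Ech1 was lowest on array 4, at 8.47 against 8.95. Both genes kept their call in all 20 fits that left out 1 array. Also in that group, Myc was lowest on array 10, at 3.97 against 5.52, and Lpl on array 1, at 2.52 against 3.56. Acot1 was highest on vehicle array 5, at 2.10, and Mki67, a marker of dividing cells, on vehicle array 7, at 2.26, both at dim levels. At 0.1 mg/kg, Cpt1b was highest on array 2, at 2.65, and Cyp7a1, which starts bile acid synthesis from cholesterol, was lowest on that array, at 5.42 against 6.69. Fabp1 was lowest on array 7, at 12.41 against 12.53. Of the 9, 2 fell on array 2 of the 0.1 mg/kg group and each of the others on an array of its own.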

How the results depend on the processing

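Of 13 calls at 0.1 mg/kg, Aig1, Cyp4a1 and Ech1 were called under all 15 alternatives and in all 20 fits without 1 array. Leaving out 1 array gave 11 to 15 genes, 10 to 13 higher and 1 to 3 lower. Ermard lost its call without treated array 2, 4, 5, 8 or 9 or vehicle array 4, 7, 8, 9 or 10 (adjusted p up to 0.111), and Vwa8 without treated array 2, 3, 4, 7 or 10 or vehicle array 2, 4, 5, 7, 8, 9 or 10 (up to 0.14). Crat passed without treated array 6 or 9 or vehicle array 1 or 10, and stayed uncalled in the other 16 of these 20 fits. The count was 7 with 6 higher and 1 lower after scaling to the hybridisation controls, 7 with 7 higher and 0 lower when only the 2 groups were fitted in limma, and 4 with 4 higher and 0 lower against a change of 1.2-fold, where with all 4 groups 415 genes were lower at an unadjusted p under 0.05. With the probe set of largest variance 7 were higher, and Eci1, Pex11a, Acaa2 and Vwa8 lost their calls. With the mean of all probe sets 2 mitochondrial beta-oxidation genes were called. A single gene was lower (1) under quantile normalization, an intensity trend, the filter at log2 5, array weights, the poly-A covariate, omission of treated arrays 8 and 9, and Benjamini-Yekutieli adjustment. Same-numbered rats of the 2 groups did not pair: 5 of 10 pairs correlated above 0.1 and 0 correlated best with their own number, and with the replicate number as a block 14 genes were called, with Vwa8 lost (adjusted p = 0.112) and Crat gained (0.046). Median r with Cyp4a1 ran from 0.706 to 0.782 without 1 array at 0.1 mg/kg and from -0.122 to 0.406 in the vehicle group. Dim signal limits Spin2b, Acot1, Cpt1b, Fabp3 and Lpl. The cause of lost calls was not tested. Fitting only 2 groups leaves fewer samples and also drops the higher doses, whose rats were less spread for several called genes.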

Other observations

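Genes of cell division did not pass at 0.1 mg/kg. Of 30 measured cell cycle genes, 2 had a change above 0, where 37.9% of all genes did, and 1 was lower at an unadjusted p under 0.05, where 3.09% of all genes were (Cdkn3, a phosphatase of cyclin-dependent kinases, -0.71, SE 0.25). Only 5 of the 30 had a group mean at log2 5 or more, and changes of dim genes depend on the background model. The list median was -0.15 against -0.03 for all genes, or -0.11 against 0.00 after quantile normalization. Against the same vehicle rats the deposited list median was 0.64 at 1 mg/kg, where that of all genes was 0.16. In cholesterol synthesis 1 of 11 measured genes lay above 0 and 0 reached an unadjusted p under 0.05, with a median of -0.15.

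Of 18 measured interferon-stimulated genes, 17 had a change above 0, where 37.9% of all genes did. Only 8 of the 18 had a group mean at log2 5 or more, and the count above 0 was not tested. In limma's test 3 were higher by unadjusted p (under 0.05), where 1.28% of all genes were, and 0 passed the adjusted threshold. The median was 0.12, or 0.19 after quantile normalization and 0.31 among members past the filter at log2 5 in any dose group. Oas1a, a sensor of viral RNA, ran from 4.11 to 6.95 with vehicle and from 5.60 to 7.31 at 0.1 mg/kg (log2 change 0.77, SE 0.33), and Usp18, which restrains interferon signalling, had 0.67 (SE 0.28). At 10 mg/kg the list median was -0.25.

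Fabp5, the epidermal fatty acid binding protein, had -0.58 (SE 0.22) at 0.1 mg/kg and 0.72 at 10 mg/kg. Ketone body genes Bdh1 and Acat1 had 0.20 (SE 0.07) and 0.22 (SE 0.09) at 0.1 mg/kg, and neither passed.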
